A study of Mus musculus with 6 samples.

Results

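The genes described here encode the glycolytic enzymes, the glucose and lactate transporters and the hypoxia response. They were measured in primary macrophages from the mouse peritoneum, phagocytes that patrol the abdominal cavity. They are 35 genes chosen by name, from glucose entry to lactate export together with the hypoxia-inducible factor (HIF) subunits, their prolyl hydroxylases and 6 of their targets, of 27240 genes in the deposited table. All 35 were found, in 36 rows, because Aldoa is listed under a pair of gene IDs. Poly(A) RNA was sequenced from 3 knockout (KO) and 3 wild-type (WT) libraries, and per the labels all 6 were exposed to oxLDL, the oxidised form of LDL whose uptake turns macrophages into foam cells. No untreated cells were analysed here, so the comparison asks only whether these transcripts differ between genotypes under oxLDL. The labels write the genotype as KO without an allele or a Cre driver; DCLK1, a kinase of the doublecortin family, is the gene in the series title. Strain, sex and age were not given in the sources used here, and the labels do not tell replicate animals from repeat preparations. The p-values therefore reflect only how these 6 libraries scatter, which may be technical.

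Glycolysis splits glucose into pyruvate in the cytosol and yields ATP without oxygen, and macrophages lean on it when they are activated. HIF-1 and HIF-2 are transcription factors whose alpha subunits, Hif1a and Epas1, are marked for destruction by oxygen-dependent prolyl hydroxylases, so that low oxygen lets them accumulate. HIF then raises transcription of glucose transporters, most glycolytic enzymes, pyruvate dehydrogenase kinases and its own hydroxylases.

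Total counts were 72559141 to 74172804 in KO libraries and 68053008 to 79090732 in WT libraries, and the 35 genes took 0.705 to 0.717% of them in KO and 0.682 to 0.701% in WT. WT replicate 1 lay farthest out on the first principal component of all genes (KO libraries lay at -37.3 to -10.9, the other WT libraries at 5.94 and 16.2, and WT replicate 1 at 60.7). Dclk1 had 415, 431 and 377 counts in KO libraries and 494, 498 and 584 counts in WT libraries (edgeR adjusted p = 0.332). All KO libraries lay below all WT libraries, but the transcript was still counted in each of them. The macrophage genes Adgre1 (1005 to 1031 CPM in KO, 1021 to 1083 in WT) and Cd68 (1958 to 2039 in KO, 1936 to 2081 in WT) were high in all libraries, where CPM is the count scaled to a common library size by edgeR's cpm function. The 9 macrophage markers summed to 12763 to 12909 CPM in KO and 20522 to 21766 CPM in WT, mostly Lyz2 (7969.6 ± 42.0 CPM in KO, 16349 ± 652 CPM in WT; SD, n = 3 each). Lyz2 passed in edgeR (adjusted p = 6.47e-06). Csf1r was also below WT in every KO library, by less (edgeR adjusted p = 0.394). It was at 960, 966 and 968 CPM in KO libraries and at 1041, 1040 and 983 CPM in WT libraries. Itgam ran the other way, at 599, 417 and 525 CPM in KO libraries and at 415, 232 and 332 CPM in WT libraries (log2 fold change 0.65, edgeR adjusted p = 0.344). The 6 large peritoneal macrophage markers summed to 70.3 to 72.1 CPM in KO and 48.7 to 56.2 CPM in WT, mostly Cd5l. Gata6, a regulator of large peritoneal macrophages, was at 1.53 to 2.58 CPM in KO and 2.42 to 2.82 CPM in WT. The neutrophil markers Ly6g and Retnlg were at 0 counts in every library. The 8 neutrophil markers measured summed to 66.6 to 68.2 CPM in KO and 71.6 to 75.9 CPM in WT, nearly all of it Csf3r and S100a8. The 9 fibroblast and mesothelial markers summed to 71.8 to 84.8 CPM in KO and 94.9 to 99.7 CPM in WT. Wt1 of that list ran the other way, at 1.27 to 1.44 CPM in KO and 0.883 to 0.916 CPM in WT. The 7 T and NK cell markers summed to 10.5 to 11.1 CPM in KO and 12.8 to 15.9 CPM in WT. The 7 erythroid and platelet markers measured summed to 51.1 to 52.3 CPM in KO and 42.5 to 44.1 CPM in WT, nearly all of it Pf4. B cell, dendritic cell and mast cell markers summed to at most 4.83 CPM in any library.

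Transcripts of nearly every glycolytic step were abundant in the macrophages of both genotypes. Per gene length, in the FPKM deposited by the authors, Aldoa, which encodes the aldolase that splits fructose bisphosphate, ranked first at 321 ± 3.15 in KO and 331 ± 14.0 in WT (SD, n = 3 each). The pyruvate kinase gene Pkm followed at 284 ± 9.03 FPKM in KO and 268 ± 4.37 FPKM in WT, then the phosphoglycerate mutase gene Pgam1 at 280.2 ± 20.8 FPKM in KO and 249 ± 5.04 FPKM in WT. Pkm and Pgam1 overlapped over the KO libraries (274 to 291 FPKM and 268 to 304 FPKM), while every WT library had more Pkm than Pgam1. Hk3, a hexokinase of myeloid cells, came next at 205 ± 3.11 FPKM in KO and 223 ± 4.62 FPKM in WT. At the low end lay Pfkm, Aldoc, Slc2a3 and Ankrd37, each under 1 FPKM in every library. The 17 enzyme genes from hexokinase to lactate dehydrogenase summed to 1585, 1615 and 1563 FPKM in KO libraries and to 1547, 1583 and 1528 FPKM in WT libraries, so the sums of the groups overlap.

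**Figure D1:**
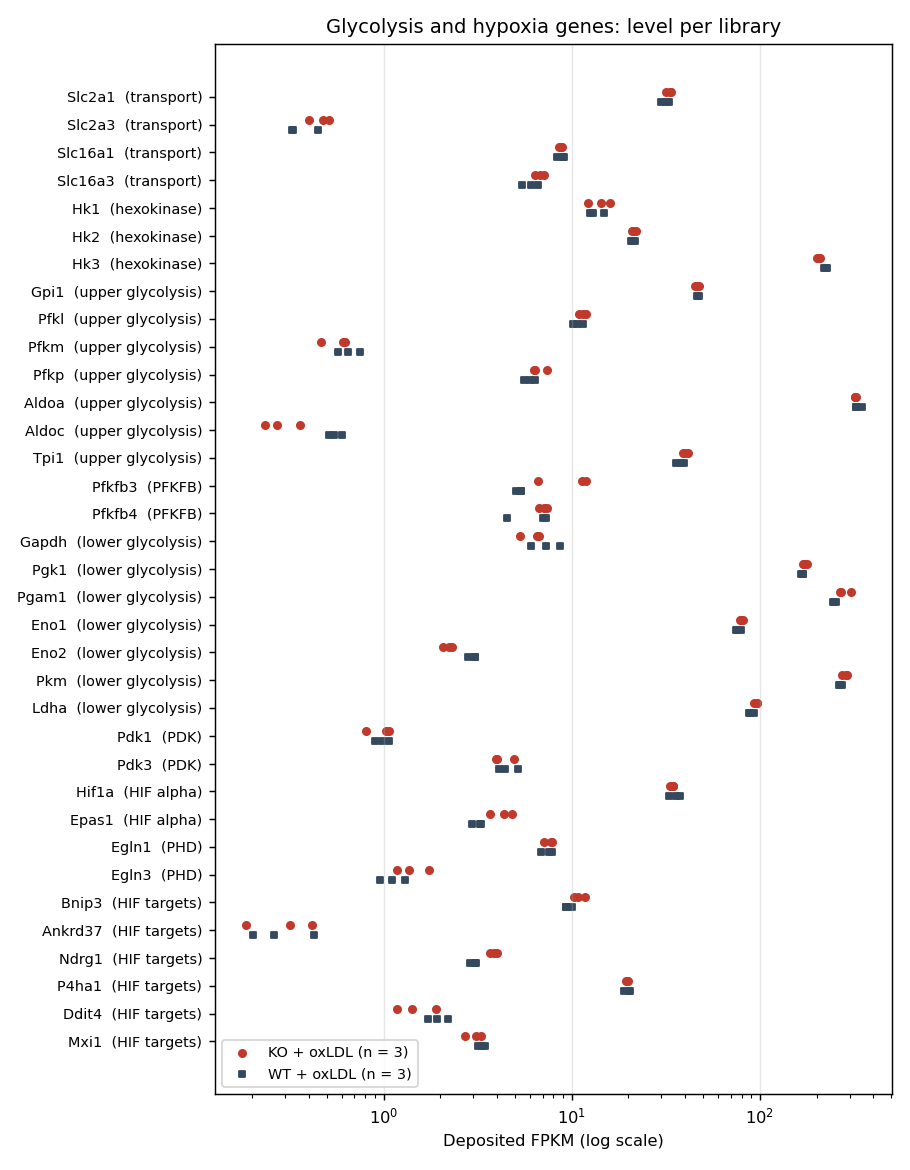
Deposited FPKM of each gene on a log axis, 1 point per library, with KO libraries as circles above WT libraries as squares. The levels span from Ankrd37, at 0.306 FPKM in KO and 0.298 FPKM in WT, to Aldoa, at 321 FPKM in KO and 331 FPKM in WT, and KO and WT points lie side by side for most genes.

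No gene of the 35 passed at an adjusted p under 0.05 in edgeR's quasi-likelihood test, in which 0.0677% of the 16239 genes tested passed. DESeq2 called 4 of the 34 genes for which it gave an adjusted p (3.57% of all genes), Pfkfb3, Ndrg1 and Epas1 higher (1.43% of all genes) and Eno2 lower in KO (2.13%). At an unadjusted edgeR p under 0.05 there were 9 of the 35, or 25.7% against 10.4% of all genes tested. Of these, 6 lay above 0, where 4.73% of all genes did, and 3 below, where 5.71% did. The genes are more precisely measured than most, with a median SE of 0.0744 on the log2 scale against 0.145 over all genes tested. All 35 passed the filter on low counts. Their median log2 fold change, KO over WT, was 0.02, against -0.0019 over all genes tested, and the median size was 0.0913, against 0.132. Of the 35, 18 had a fold change within 0.1 of 0 on the log2 scale and 9 lay beyond 0.25, a share of 25.7% against 31.5% of all genes tested. KO and WT libraries did not overlap for 8 genes, 5 with KO above and 3 with KO below, or 22.9%, where 17.6% of all genes did not overlap (8.68% with KO above and 8.89% with KO below). Without WT replicate 1, edgeR called 0 of them and the median was 0.03. In these bulk samples fewer cells of a type and less RNA per cell cannot be told apart.

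**Figure D2:**
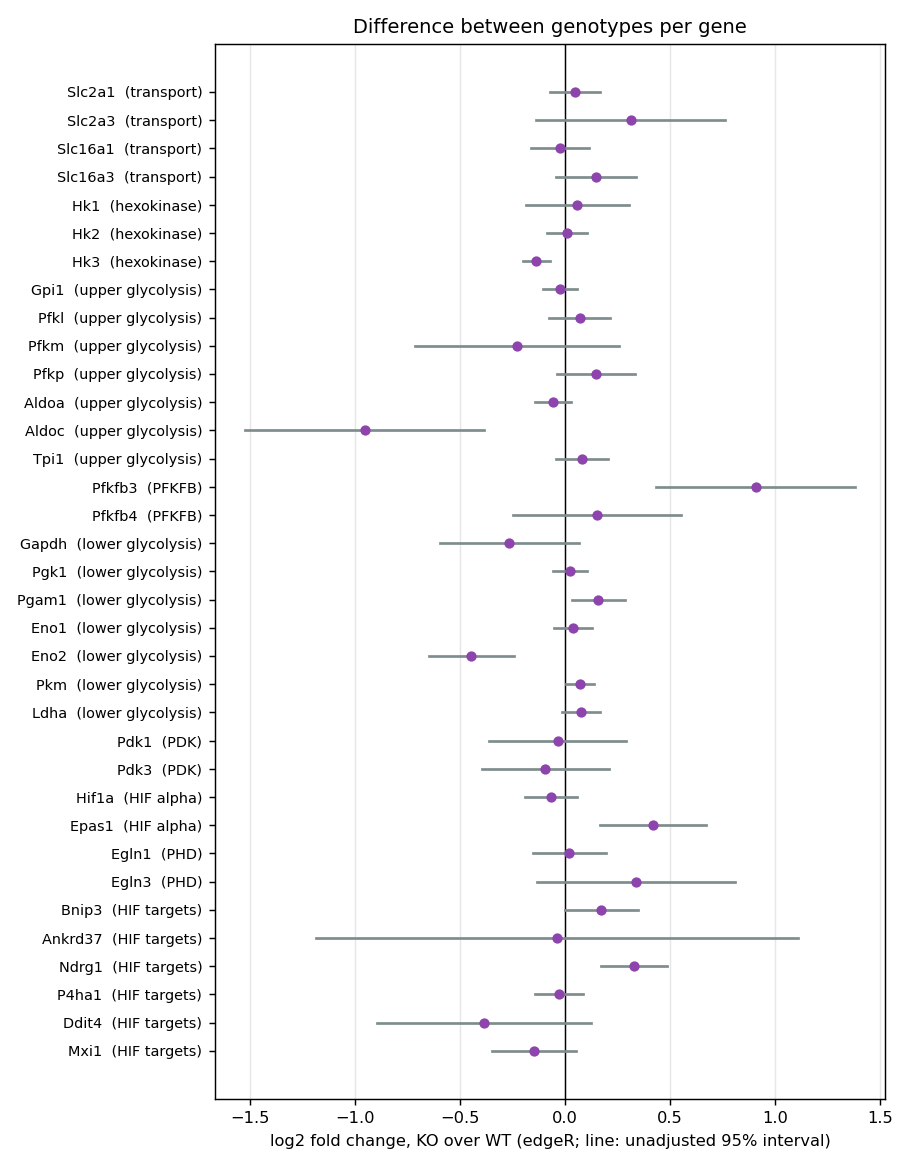
Log2 fold change of each gene, KO over WT (points), with its unadjusted 95% interval from edgeR (lines). Pfkfb3 (0.91) and Aldoc (-0.95) lie farthest from 0, while the abundant Pkm (0.07) and Aldoa (-0.06) lie close to it.

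The largest positive difference was in Pfkfb3, which encodes the bifunctional enzyme that makes fructose-2,6-bisphosphate, a potent allosteric activator of phosphofructokinase. Pfkfb3 (ENSMUSG00000026773, chromosome 2, 11471433 to 11554077, minus strand, GRCm38) was at 95.2, 100.4 and 55.4 CPM in KO libraries and at 42.8, 45.5 and 45.4 CPM in WT libraries. All KO libraries lay above all WT libraries, but KO replicate 3 lay much nearer to WT than to the other KO libraries. The KO mean was 83.7 ± 24.6 CPM and the WT mean 44.6 ± 1.54 CPM (SD, n = 3 each). KO was thus at 1.88 times WT (log2 fold change 0.91, SE 0.202, edgeR adjusted p = 0.161). Without KO replicate 3 the gene passed, with a log2 fold change of 1.13 (edgeR adjusted p = 0.00224), in a fit that called 0.0533% of genes. Over all alternatives its adjusted p ran from 0.00224 to 0.403. Its relative Pfkfb4, another producer of fructose-2,6-bisphosphate, was at 38.4, 36.1 and 40.0 CPM in KO libraries and at 24.6, 40.0 and 38.3 CPM in WT libraries. WT replicate 1 alone was low, and the log2 fold change was 0.15 with it and -0.04 without it.

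Promoter windows from RefSeq (GRCm38.p6) are shown for Pfkfb3, the gene with the highest fold change, for Eno2, which differs the other way, and for Ldha and Bnip3 as classical HIF targets. Aldoc, which lies farther below 0 than Eno2, is not shown. For Ldha only windows with at least 2 matches were kept for printing, a rule not used for the other genes. The Ldha window lies inside the deposited coordinates of the gene (46841475 to 46855627), not at their 5′ end. The downstream Pfkfb3 window also lies inside those of its gene (11471433 to 11554077). The upstream Pfkfb3 window lies inside them too, except at its far edge. The Eno2 window lies outside the deposited gene, and so does the Bnip3 window except at its near edge. Each run is the 150 bases before a start site, read 5′ to 3′ along the gene's strand, and capitals mark the core of the hypoxia element, ACGTG, or its variant with a different first base, GCGTG. Where the core lies on the other strand it reads as its reverse complement, CACGT, and the variant then reads as CACGC in these lines. The palindrome CACGTG holds a core on each strand and counts as 2 overlapping matches.
Pfkfb3, upstream start site, chr2:11553930-11554079, minus strand: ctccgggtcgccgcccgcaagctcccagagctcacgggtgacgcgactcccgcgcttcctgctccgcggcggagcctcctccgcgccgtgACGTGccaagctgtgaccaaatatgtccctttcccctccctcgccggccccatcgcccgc
Pfkfb3, downstream start site, chr2:11502091-11502240, minus strand: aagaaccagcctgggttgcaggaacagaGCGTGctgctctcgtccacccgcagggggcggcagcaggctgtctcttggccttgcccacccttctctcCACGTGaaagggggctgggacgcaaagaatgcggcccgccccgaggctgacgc
Eno2, chr6:124769674-124769823, minus strand: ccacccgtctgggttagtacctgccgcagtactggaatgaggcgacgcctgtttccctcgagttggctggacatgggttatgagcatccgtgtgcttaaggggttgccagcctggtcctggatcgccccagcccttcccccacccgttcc
Ldha, chr7:46845654-46845803, plus strand: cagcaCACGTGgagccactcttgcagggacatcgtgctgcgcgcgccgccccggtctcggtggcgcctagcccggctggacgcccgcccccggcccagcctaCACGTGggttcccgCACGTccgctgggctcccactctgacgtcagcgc
Bnip3, chr7:138909507-138909656, minus strand: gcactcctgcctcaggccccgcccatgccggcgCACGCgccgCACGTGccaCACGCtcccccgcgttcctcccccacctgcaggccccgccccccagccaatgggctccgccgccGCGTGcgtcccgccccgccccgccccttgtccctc

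The downstream Pfkfb3 window holds 3 matches and the upstream window 1, while Ldha and Bnip3 hold 5 each and Eno2 none. The Ldha window was picked partly by its matches, so its count is not comparable with the others. Windows were found for 32 of the 35 genes, and not for Slc2a3, Epas1 and Ndrg1. Over the 250 bases before the start site, 38 of their 47 windows (80.9%) held at least 1 of these cores on either strand. The share was 54.0% for the windows of genes tested and 38.6% for all 32851 windows. By gene, 29 of the 32 (90.6%) held a core, against 59.8% of genes tested, and Eno2 was among those without. The genes were chosen by name, some as HIF targets, and the windows compared were not matched for base composition. Whether matches go with the direction of change was not tested. The palindrome CACGTG was in 12.8% of the windows of these genes and in 8.14% of the windows of genes tested. A match is a description of the letters, not a site that HIF was shown to bind in these cells. The counts do not tell which Pfkfb3 start site was used.

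Of the HIF alpha subunits, Epas1 was higher in every KO library and Hif1a overlapped between genotypes. Epas1 (ENSMUSG00000024140, chromosome 17, 86753700 to 86833410, plus strand), which encodes HIF-2 alpha, was at 22.7, 27.0 and 29.9 CPM in KO libraries and at 20.5, 18.5 and 20.4 CPM in WT libraries. The groups did not overlap, with KO replicate 1 close to WT. The fold was 1.34 (log2 fold change 0.42, SE 0.109, edgeR adjusted p = 0.218, and 0.0194 to 0.494 over the alternatives). Hif1a was at 217, 225 and 227 CPM in KO libraries and at 247, 219 and 235 CPM in WT libraries, with overlap (log2 fold change -0.07, 95% interval -0.19 to 0.06, edgeR adjusted p = 0.732). Per length, Epas1 made up 9.94, 11.2 and 12.2% of the summed FPKM of the 2 subunits in KO libraries and 8.07, 8.19 and 8.37% in WT libraries. The prolyl hydroxylase gene Egln1 was at 30.2 ± 1.54 CPM in KO and 29.8 ± 1.99 CPM in WT (SD, n = 3 each). Its HIF-inducible relative Egln3 was at 4.05, 3.50 and 5.18 CPM in KO libraries and at 3.32, 2.86 and 3.88 CPM in WT libraries, an overlap (log2 fold change 0.34, edgeR adjusted p = 0.629).

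The HIF targets in the set did not go one way. Ndrg1 (ENSMUSG00000005125, chromosome 15, 66929318 to 66969640, minus strand), a stress-responsive gene induced by hypoxia, was at 28.1, 29.3 and 26.9 CPM in KO libraries and at 21.3, 22.8 and 22.9 CPM in WT libraries. Every KO library lay above every WT library by more than the spread within either group. The fold was 1.26 (log2 fold change 0.33, SE 0.0671, edgeR adjusted p = 0.131, and 0.00703 to 0.377 over the alternatives). Of its coding-transcript sequence, 12.3% is shared with other genes, mostly the opposite-strand Gm17035, whose counts were not analysed here. Bnip3, a mitophagy receptor gene, was at 27.0, 26.0 and 29.5 CPM in KO libraries and at 23.6, 25.7 and 23.7 CPM in WT libraries, without overlap but with WT replicate 2 close to KO (edgeR adjusted p = 0.476). The collagen prolyl hydroxylase gene P4ha1 was at 89.8 ± 1.24 CPM in KO and 91.6 ± 4.11 CPM in WT (SD, n = 3 each). Ddit4, an mTORC1 inhibitor gene, was at 2.78, 3.73 and 2.30 CPM in KO libraries and at 3.78, 4.33 and 3.38 CPM in WT libraries, with overlap (edgeR adjusted p = 0.609). The MYC antagonist gene Mxi1 was at 22.9 ± 2.11 CPM in KO and 25.3 ± 1.16 CPM in WT (SD, n = 3 each; edgeR adjusted p = 0.628). Ankrd37 had 24, 40 and 53 counts in KO libraries and 54, 36 and 28 counts in WT libraries, and its direction did not hold across alternatives.

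**Figure D3:**
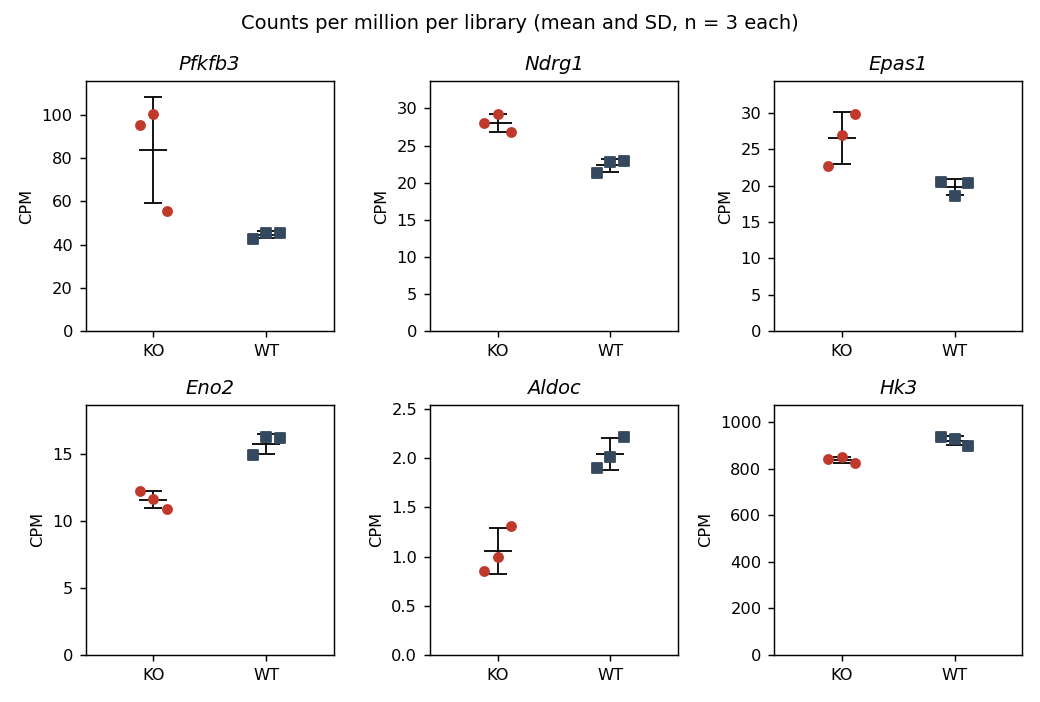
CPM of the 6 genes named in its panels in each library, KO left and WT right, with the mean and SD (n = 3 each) and axes from 0. The groups do not overlap in any panel, and KO replicate 3 of Pfkfb3, at 55.4 CPM, lies apart from the other KO libraries.

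At the enolase and aldolase steps the minor isozyme genes Eno2 and Aldoc lay below WT in every KO library, while the major isozymes overlapped. Eno2 (ENSMUSG00000004267, chromosome 6, 124760053 to 124769621, minus strand), the neuron-type enolase gene, was at 12.2, 11.7 and 10.9 CPM in KO libraries and at 14.9, 16.2 and 16.2 CPM in WT libraries. All KO libraries lay below all WT libraries. The fold was 0.735 (log2 fold change -0.44, SE 0.0858, edgeR adjusted p = 0.124, and 0.00403 to 0.363 over the alternatives). Eno1, the main enolase gene of macrophages, was at 474 ± 10.6 CPM in KO and 461 ± 17.5 CPM in WT (SD, n = 3 each), with overlap. Eno2 therefore made up 2.71 ± 0.203% of the summed Eno1 and Eno2 FPKM in KO and 3.74 ± 0.140% in WT (SD, n = 3 each). Eno3, another minor enolase gene, is not in that sum and ran the other way. It was at 6.52, 7.01 and 6.60 CPM in KO libraries and at 5.77, 5.34 and 6.51 CPM in WT libraries. The groups did not overlap but nearly touched (log2 fold change 0.19, edgeR adjusted p = 0.650). Its mean was 3.47 FPKM in KO and 3.01 FPKM in WT.

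Aldoc (ENSMUSG00000017390, chromosome 11, 78322968 to 78327781, plus strand), the brain-type aldolase gene, had 64, 73 and 96 counts in KO libraries and 129, 150 and 174 counts in WT libraries. The groups did not overlap, and the gene gave 0.0898% of the summed Aldoa and Aldoc FPKM in KO and 0.167% in WT. Its fold was 0.517 (log2 fold change -0.95, SE 0.243, edgeR adjusted p = 0.213, and 0.0605 to 0.472 over the alternatives). On the log2(FPKM + 1) scale of limma without an FPKM filter, which understates changes of low genes, it was -0.27. Aldoa was at 1029, 1050.1 and 1033 CPM in KO libraries and at 1047, 1136 and 1051 CPM in WT libraries, and its second listed ID (ENSMUSG00000114515) had 6 to 13 counts in KO and 7 to 24 counts in WT. The summed fibroblast and mesothelial markers were also low in KO (71.8 to 84.8 CPM against 94.9 to 99.7 CPM in WT). Of them Dcn, Pdgfra and Krt19 lay below WT in every KO library, Wt1 lay above, and the rest overlapped. The part of such cells in the Eno2 and Aldoc values was not tested. Eno2 lies near Tpi1 and Gapdh on chromosome 6, and Tpi1, which encodes triosephosphate isomerase, was at 123 ± 3.68 CPM in KO and 116 ± 6.18 CPM in WT (SD, n = 3 each).

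At the hexokinase step Hk3 gave 85.4, 86.1 and 84.2% of the hexokinase FPKM in KO libraries and 86.2, 87.0 and 86.7% in WT libraries. Hk3 (ENSMUSG00000025877, chromosome 13, 55005985 to 55021385, minus strand) was at 842, 849 and 823 CPM in KO libraries and at 935, 926 and 898 CPM in WT libraries. The groups did not overlap, though the fold was only 0.911 (log2 fold change -0.13, SE 0.0279, edgeR adjusted p = 0.138). Hk2, the insulin- and HIF-responsive hexokinase gene, was at 142 ± 3.41 CPM in KO and 140.5 ± 2.89 CPM in WT (SD, n = 3 each). Its unadjusted 95% interval was -0.09 to 0.11 on the log2 scale, and it reflects only the scatter of these 6 libraries. Hk1, the housekeeping hexokinase gene, spread from 116 to 151 CPM in KO and from 119 to 141 CPM in WT. The Hk2 share of hexokinase FPKM was 8.68 to 9.17% in KO and 8.004 to 8.31% in WT.

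The phosphofructokinase subunit genes Pfkl, of liver type, and Pfkp, of platelet type, gave 61.2 ± 2.94% and 35.8 ± 2.72% of their family's FPKM in KO, and 61.9 ± 1.71% and 34.3 ± 1.18% in WT (SD, n = 3 each). The muscle-type Pfkm gave 2.55 to 3.30% in KO and 3.39 to 4.40% in WT. Exons of Pfkp overlap those of Pitrm1 on the opposite strand by 748 bases. Whether reads were counted by strand was not given in the sources used here. Over the 14 shares computed, 7 reached p = 0.1 in the exact two-sided permutation test of 3 against 3, the smallest it allows, or 0.2 after Benjamini-Hochberg adjustment, so none could pass.

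**Figure D4:**
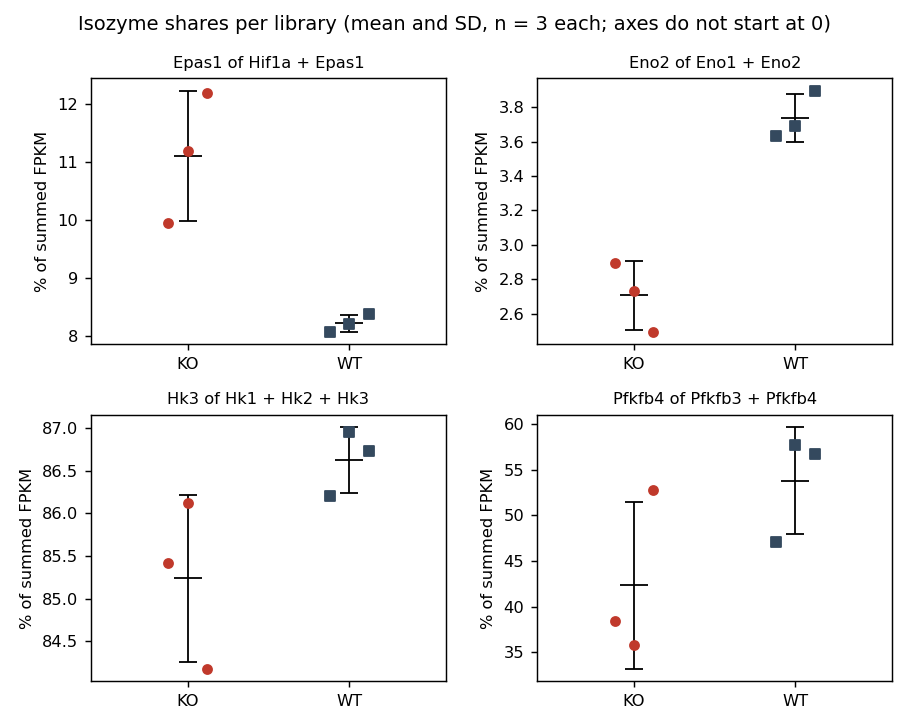
Share of a named isozyme in the summed FPKM of the family members named in its panel title, in each library. KO is left and WT right, with the mean and SD (n = 3 each), and the axes do not start at 0. The Epas1 share is 9.94 to 12.2% in KO and 8.07 to 8.37% in WT, the Eno2 share is 2.49 to 2.90% in KO and 3.63 to 3.90% in WT, and the Pfkfb4 shares overlap.

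KO and WT libraries overlapped for each of the 4 glucose and lactate transporter genes. Slc2a1, the GLUT1 gene, was at 131, 123 and 129 CPM in KO libraries and at 117, 125 and 128 CPM in WT libraries, with overlap (log2 fold change 0.05, 95% interval -0.07 to 0.17). Slc2a3, the GLUT3 gene, was at 3.23, 3.86 and 4.13 CPM in KO libraries and at 2.69, 2.68 and 3.65 CPM in WT libraries (fold 1.24, log2 fold change 0.31, SE 0.192, edgeR adjusted p = 0.635). It gave only 1.18 to 1.52% of the summed FPKM of the 2 GLUT genes in KO and 1.02 to 1.35% in WT. The lactate exporter gene Slc16a3 (MCT4) was at 42.1, 37.6 and 39.9 CPM in KO libraries and at 39.1, 32.7 and 36.0 CPM in WT libraries, with overlap (log2 fold change 0.15, edgeR adjusted p = 0.586). Slc16a1 (MCT1) was at 43.0 ± 0.848 CPM in KO and 43.7 ± 2.24 CPM in WT (SD, n = 3 each). The Slc16a3 share of their summed FPKM was 42.6 to 44.8% in KO and 37.5 to 42.2% in WT, without overlap (exact permutation p = 0.1, 0.2 after adjustment). Of the genes for pyruvate dehydrogenase kinases, which inhibit pyruvate dehydrogenase, Pdk1 was at 8.43 ± 1.21 CPM in KO and 8.62 ± 0.759 CPM in WT, and Pdk3 at 12.3 ± 1.58 CPM in KO and 13.1 ± 1.52 CPM in WT (SD, n = 3 each).

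In the lower part of the pathway the abundant genes differed by little. Pgam1 was at 588, 669 and 590 CPM in KO libraries and at 538, 565 and 550 CPM in WT libraries, without overlap (log2 fold change 0.16, SE 0.0545, edgeR adjusted p = 0.362). Pkm was at 1611, 1595 and 1516 CPM in KO libraries and at 1518, 1498 and 1472 CPM in WT libraries, with KO replicate 3 just under WT replicate 1 (log2 fold change 0.07, edgeR adjusted p = 0.434). Ldha, which encodes the lactate dehydrogenase subunit that makes lactate, was at 350.0 ± 6.53 CPM in KO and 332 ± 11.6 CPM in WT (SD, n = 3 each). Pgk1, the phosphoglycerate kinase gene, was at 428 ± 10.7 CPM in KO and 421 ± 8.39 CPM in WT, and Gpi1, the phosphoglucose isomerase gene, at 332 ± 6.83 CPM in KO and 337 ± 4.65 CPM in WT (SD, n = 3 each).

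Gapdh, widely used as a reference transcript, was counted at a far lower level than its neighbours in the pathway. Its row (ENSMUSG00000057666, chromosome 6, 125161715 to 125165773, minus strand) had 2289, 1795 and 2192 counts in KO libraries and 2730, 2519 and 2213 counts in WT libraries, or 6.19 ± 0.733 FPKM in KO and 7.37 ± 1.31 FPKM in WT (SD, n = 3 each). Pgk1, which acts at the next step, had 168 to 177 FPKM in KO and 164 to 169.9 FPKM in WT. Of the 50-base sequences of the protein-coding Gapdh transcripts, 58.4% also occur in transcripts of other genes in GENCODE M21. Gm7336, annotated as a processed pseudogene on chromosome 7, equals the Gapdh coding sequence at all 999 bases, and Gm5559, on chromosome 5, at 998 of 999. The stretch from coding base 340 to 429 is shown because these rows share it, and the capital marks the base at which Gm5559 differs.
Gapdh: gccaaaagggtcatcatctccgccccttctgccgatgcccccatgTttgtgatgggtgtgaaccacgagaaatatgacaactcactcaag
Gm7336: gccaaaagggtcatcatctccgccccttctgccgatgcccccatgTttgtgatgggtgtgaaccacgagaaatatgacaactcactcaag
Gm5559: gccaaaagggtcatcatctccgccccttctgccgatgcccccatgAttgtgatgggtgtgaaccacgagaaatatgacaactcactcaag

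In the deposited counts Gm7336 had 13978, 13252 and 14620 in KO libraries and 13065, 15816 and 15234 in WT libraries, several times the Gapdh row. The 57 rows that share at least 10% of the Gapdh coding-transcript sequences held 54180, 55060 and 54911 counts in KO libraries and 50251, 59035 and 57426 counts in WT libraries. Summed with them, Gapdh was at 755, 777 and 780 CPM in KO libraries and at 779, 828 and 758 CPM in WT libraries, which overlap. The log2 fold change was -0.26 for the Gapdh row alone (SE 0.142, edgeR adjusted p = 0.580) and -0.04 for the sum (SE 0.0385, edgeR adjusted p = 0.811). The Gapdh row is thus uncertain as a level and as a reference for the other genes. Sharing was also large for Pgk1 (68.0% of coding-transcript sequences), Bnip3 (59.1%), Eno1 (49.5%) and Pgam1 (41.5%), but rows that share with these held fewer counts than the genes' own. They held most for Eno1, with 5552 beside 35599 in its own row in WT replicate 3. The Eno1 log2 fold change was 0.0389 for its own row and 0.0377 for the sum. Pfkfb3, Eno2, Aldoc, Hk3 and Epas1 share at most 0.530%.

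**Figure D5:**
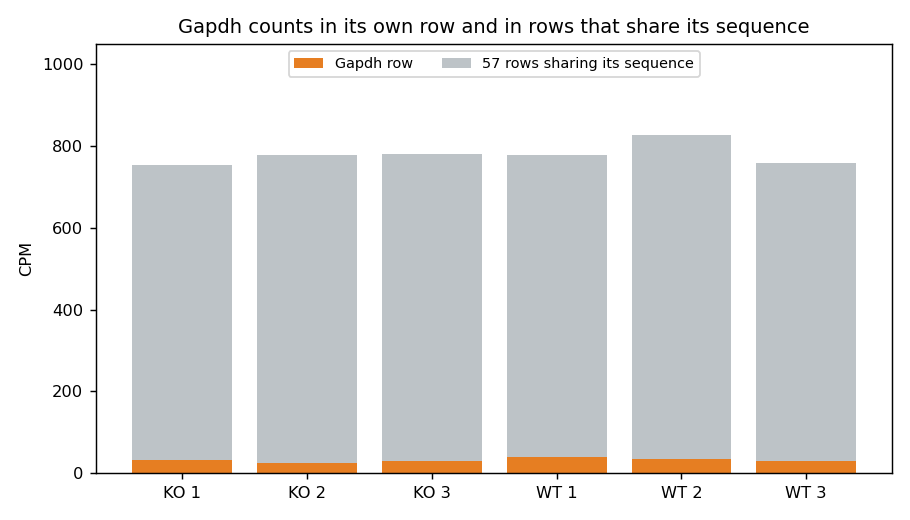
CPM counted in the Gapdh row (orange) and in 57 rows that share its sequence (grey, stacked) for each library, KO left and WT right, axis from 0. The Gapdh row holds 24.5 to 30.6 CPM in KO and 28.1 to 40.2 CPM in WT, while the stacked sums lie between 755 and 828 CPM.

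Further genes of these pathways were taken from lists of 108 genes, of which 105 were in the table and 96 were tested. EdgeR called none (0 of 96), with 7 above and 6 below 0 at an unadjusted p under 0.05, where 4.73% and 5.71% of all genes tested were. DESeq2 called 4 (3.57% of all genes), 2 higher (1.43%) and 2 lower in KO (2.13%). The groups did not overlap for 13 with KO above and 8 with KO below, where 8.68% and 8.89% of all genes did so. The DESeq2 shares, and the edgeR and overlap shares lower in KO, are near those of all genes. The 7 above 0 and the 13 with KO above are larger shares of the 96 than among all genes. That difference was not tested. Hilpda, a HIF target that coats lipid droplets and inhibits their lipolysis, was at 70.7, 72.9 and 69.9 CPM in KO libraries and at 54.1, 57.9 and 53.1 CPM in WT libraries. Its groups lay well apart, with a fold of 1.29 (log2 fold change 0.37, SE 0.0533, edgeR adjusted p = 0.0756). Among the 36 other HIF targets tested, 4 were above and 2 below 0 at an unadjusted p under 0.05, against 4.73% and 5.71% of all genes tested, and the list median was -0.03.

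Bhlhe40, a hypoxia-inducible repressor gene, was at 489 ± 7.70 CPM in KO and 434 ± 19.9 CPM in WT (SD, n = 3 each; edgeR adjusted p = 0.182), and the mitophagy receptor gene Bnip3l at 278 ± 5.13 CPM in KO and 253 ± 5.51 CPM in WT (SD, n = 3 each; edgeR adjusted p = 0.262). Arnt, which encodes the partner of the HIF alpha subunits, was at 45.3 ± 1.14 CPM in KO and 40.3 ± 1.497 CPM in WT (SD, n = 3 each; edgeR adjusted p = 0.347). The lysosomal glucose transporter-like gene Slc2a6 was at 97.4, 88.7 and 90.3 CPM in KO libraries and at 119, 103 and 109 CPM in WT libraries, without overlap (edgeR adjusted p = 0.213). Pfkfb2, another producer of fructose-2,6-bisphosphate, was at 16.3 ± 0.639 CPM in KO and 13.6 ± 0.608 CPM in WT (SD, n = 3 each; edgeR adjusted p = 0.303). Gpd2, the mitochondrial glycerol-3-phosphate dehydrogenase gene, was at 75.1 ± 4.10 CPM in KO and 87.7 ± 5.03 CPM in WT (SD, n = 3 each; edgeR adjusted p = 0.261). Mlxip and Arrdc4, of the glucose-sensing MondoA system, had folds of 0.858 and 0.901 (edgeR adjusted p = 0.237 and 0.433), and Taldo1 of the pentose phosphate pathway a fold of 1.06 (edgeR adjusted p = 0.312). None of the 11 tested genes of pyruvate entry into and use in mitochondria had an unadjusted edgeR p under 0.05.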

How the data were processed

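Paired-end poly(A) libraries were sequenced on a NovaSeq instrument, per the labels' protocols, and aligned, with HISAT2 2.0 among the tools of the submitters' processing notes. The sources used here name no counter, strand setting or genome build. The authors deposited raw counts and FPKM (scaled for gene length and library size) per library, per the file headers. Another 12 value columns carry names that fit no sample here and stayed out of every step. Coordinates are as deposited, taken as GRCm38: 27169 of 27240 gene IDs are in GENCODE M21, and 29 of the 36 rows described have identical coordinates there. Genes kept by filterByExpr (16239) were scaled by TMM and tested two-sided in edgeR 4.0.16 (R 4.3.3) with genotype as the only term, Benjamini-Hochberg adjusted over all of them. Levels are CPM on TMM-scaled sizes. Isozyme shares were tested by exact permutation. DESeq2 1.42.0 and limma 3.58.1 on log2(FPKM + 1) were alternatives. Sequence sharing was counted as 50-base sequences of GENCODE M21 transcripts on either strand. Chi-square over degrees of freedom between replicate libraries was 36.7 to 42.8, so none was treated as a duplicate. The edgeR and limma fits were tested on simulated data. The genes, their lists and the marker lists were chosen with earlier results of these data known. Named beyond the 35 were, per list, the genes called and otherwise up to 3 genes of smallest unadjusted p under 0.05 without overlap between groups. Eno3 was named outside this rule, for comparison with Eno2. Windows for printed promoters, and summing of rows at 10% shared sequence, were chosen after values were seen.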

Additional observations from a re-analysis of the deposited data

How the results depend on the processing

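Alternatives were RLE size factors, no count filter, DESeq2, limma on FPKM with pseudocounts of 1 and 0.1 and without an FPKM filter, a replicate block, leaving out each library, and summing rows that share sequence. The number of all genes called, 11, became 7 without the filter, 455 with DESeq2, 3 with limma without an FPKM filter and 7 to 35 with a library left out (35 without KO replicate 1, 24 without WT replicate 2 and 7 without WT replicate 1). Of the 35 genes, DESeq2 called 4, limma 0 and leaving out a library 0 to 1 (Pfkfb3, without KO replicate 3), and of the other pathway genes DESeq2 called 4. The median was 0.0508 and 0.0514 with limma pseudocounts of 1 and 0.1, over the 31 genes that pass the FPKM filter (Pfkm, Aldoc, Slc2a3 and Ankrd37 do not). With the replicate block 3 genes were called overall and 0 of the 35; same-numbered libraries correlated by only 0.0173 to 0.0488, so the numbers were not taken as pairs, although 6 of 6 libraries correlated best with their own number. The sign of Ankrd37 turned to 0.0091 with limma without an FPKM filter and 0.13 with rows summed at 10%. Leaving out a library spread log2 fold changes across 0 for Ankrd37 (-0.33 to 0.34), Slc16a1 (-0.0648 to 0.0047), Hk1 (-0.0346 to 0.15), Hk2 (-0.0082 to 0.0275), Pfkfb4 (-0.0373 to 0.28), Pdk1 (-0.11 to 0.0780), Pdk3 (-0.20 to 0.0033) and Egln1 (-0.0322 to 0.0620). It did so for the shares of Pfkl (-1.62 to 1.0), Pfkp (-0.121 to 2.37) and Pdk3 (-1.40 to 0.502), in percentage points. The cause of these changes was not tested. Other genes followed kept their direction in the alternatives that tested them, which for Pfkm, Aldoc and Slc2a3 leave out limma with the FPKM filter.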
